A study of Mus musculus with 17 samples.

Results

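Iron and haem are handled in the liver by a small set of proteins, and 10 of their genes were followed here. Alas1 and Alas2 stand for haem synthesis and Hmox1 for haem breakdown. Hamp encodes the hormone hepcidin, and Hamp2 is its duplicate in mice. Slc40a1 stands for iron export, Tfrc and Scara5 for iron uptake, and Fth1 and Ftl1 for iron storage. The 10 genes were picked by gene symbol from a table of 24676 genes. All 10 passed the filter on low values, which asked for a normalized count of 10 or more in 4 or more libraries and kept 13379 genes.

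Hepatocytes take up iron bound to transferrin through the transferrin receptor, store it inside shells of ferritin heavy and light chains, and release it through ferroportin, the product of Slc40a1. Hepcidin, which hepatocytes secrete, binds ferroportin and leads to its breakdown, so that iron stays in cells. Haem synthesis starts with 5-aminolevulinate synthase, made from Alas1 in most tissues and from Alas2 in red cell precursors, and in the liver much of the haem goes into cytochrome P450 enzymes.

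The RNA came from livers of male mice of mixed strain that carried floxed Gata4 alleles (Gata4 fl/fl) in all groups. At 10 weeks of age they received an adeno-associated virus of serotype 8, either with Cre recombinase under the hepatocyte promoter Tbg (Gata4LKO) or empty (control), so that the Cre cargo and the Gata4 genotype cannot be told apart. GW3965, which activates the liver X receptors (LXR), nuclear receptors for oxysterols, was given 1 week later by gavage at 40 mg/kg in canola oil, 17 h and 8 h before the mice were killed after a 4 h fast. Vehicle was dimethylsulfoxide in the same oil, and the labels give an age of 11 weeks. The groups were Gata4LKO with GW3965 (n = 5), control with GW3965 (n = 4), Gata4LKO with vehicle (n = 4) and control with vehicle (n = 4). Group names follow the sample titles, which the treatment field contradicts in the 8 libraries of the Gata4LKO vehicle and control GW3965 groups.

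Gata4 itself had 159.9 to 259.9 normalized counts in libraries labelled Gata4LKO with GW3965 and 164 to 258 in control libraries with GW3965. With vehicle this gene had 137 to 234 in libraries labelled Gata4LKO and 128 to 183 in control libraries. The groups overlapped under both treatments, so the Gata4 counts did not show the difference that the labels name. No source used here names the floxed exons, and genotypes below are those of the labels.

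Values are the authors' normalized counts, in which a library's reads were scaled by its size factor. Libraries held 11755516 to 22045786 reads in genes, and the hepatocyte marker Alb was at 895197 normalized counts or more in each. In 5 of the 17 libraries, mitochondrially encoded genes held 15.6% to 32.6% of the normalized counts, against 6.06% to 7.26% in the other 12. These 5 were replicates 17 and 18 of Gata4LKO with GW3965, replicates 10 and 13 of control with GW3965, and replicate 1 of control with vehicle. The pseudogene Gm5345 was at 2 normalized counts or less in all 4 Gata4LKO vehicle libraries and in control GW3965 replicates 9 and 10, and at 23.1 or more in the other 11. The first 5 are called mitochondria-rich below. For Alas1, Alas2 and Scara5, log2 differences printed below are also given without either set where that ended a call or moved the value by over 1.5 times. For their other differences and for most other genes such fits are not given, so silence there does not mean that a value held. In bulk tissue, fewer cells of a type and less RNA per cell cannot be told apart.

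Of the 10 genes, Scara5 fell with GW3965 in control livers and Alas2 fell with GW3965 when both genotypes were averaged. Alas1 and Alas2 stood apart in the libraries labelled Gata4LKO with GW3965, with the highest and the lowest group medians, but the differences between single groups missed the threshold. The other 7 genes passed the threshold in no comparison. The test was limma on log2(normalized count + 1) over all genes, with p-values adjusted by the Benjamini-Hochberg method and a gene called at an adjusted p below 0.05. All log2 differences below are on this scale, given ± SE.

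Per length of exon, Hamp had the highest level, with a median over the 17 libraries of 11521 normalized counts per kilobase. Fth1 followed at 3973, Alas1 at 1630, Ftl1 at 1294 and Alas2 at 589 normalized counts per kilobase. Slc40a1 was at 318, Hamp2 at 237, Hmox1 at 158, Scara5 at 113 and Tfrc at 51.3 normalized counts per kilobase. Hamp was above 99.5% of the 13373 tested genes with an annotated length, and Tfrc above 53.8%. Over the libraries, the ranges of neighbours in this order overlapped, except that the lowest Fth1 level (3194) was above the highest Alas1 level (3007). The length is that of all annotated exons of a gene, and lengths come from the GENCODE M21 annotation of mm10.

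**Figure D1:**
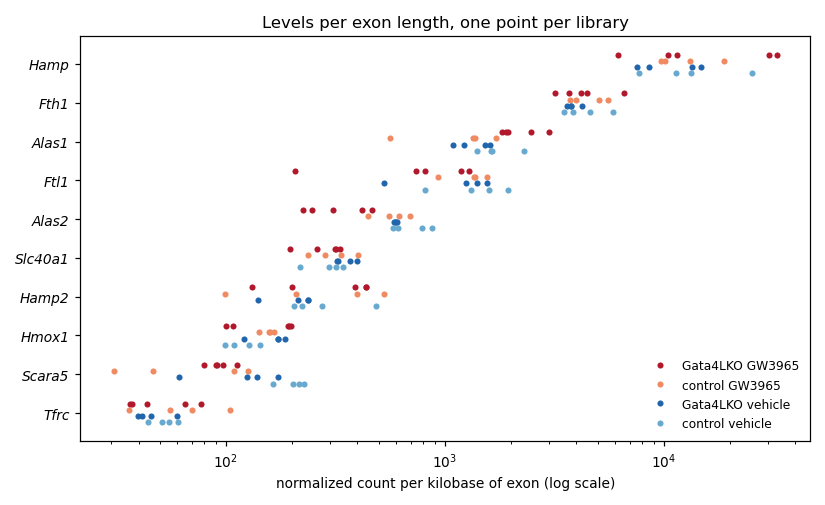
Normalized counts per kilobase of exon for the 10 genes, on a log axis, with 1 point per library and groups in separate rows and colours. Genes are ordered by their median over the 17 libraries; the points of Fth1 and Alas1 do not overlap, and those of other neighbours do.

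Several of these messages carry an iron-responsive element, a hairpin that the iron regulatory proteins bind when iron is low. In a 5′ untranslated region the bound hairpin blocks translation, and in the 3′ untranslated region of Tfrc it stabilises the message. A search for a C, a 5-base stem, the loop CAGTGN and the 5 pairing bases found the element in the 5′ untranslated region of 4 of the 10 genes, and in 0.21% of the 11921 tested genes with such a region. In the 3′ untranslated region it was found in Tfrc alone among the 10 genes and in 0.813% of 12058 tested genes. The elements are shown because they are what these messages share in sequence. They are read 5′ to 3′ on the gene's strand from GENCODE M21 transcripts (mm10), with the 6-base loop in capitals. The lines give Fth1 (chr19:9982732-9982760, plus strand), Ftl1 (chr7:45459779-45459807, minus strand), Slc40a1 (chr1:45925465-45925493, minus strand) and Alas2 (chrX:150547458-150552149, plus strand, split by an intron). They then give the first and the last of 4 elements in Tfrc (chr16:32631219-32631247 and chr16:32631710-32631738, plus strand).
Fth1: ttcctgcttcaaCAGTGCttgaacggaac
Ftl1: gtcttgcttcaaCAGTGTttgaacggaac
Slc40a1: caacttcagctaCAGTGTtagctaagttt
Alas2: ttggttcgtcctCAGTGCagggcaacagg
Tfrc, first: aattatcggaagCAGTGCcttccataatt
Tfrc, last: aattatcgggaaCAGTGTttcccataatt
The search covers letters and pairing alone, and the counts here are of RNA, so translation was not measured. Among the 5 genes with the element, Alas2 passed the threshold in 1 comparison and Fth1, Ftl1, Slc40a1 and Tfrc in none.

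The first question is what GW3965 did to these genes in each genotype. In control libraries, 1 of the 10 genes was called, Scara5, which was lower with GW3965, and 0.792% of all genes tested were called there (0.605% as higher and 0.187% as lower). The groups did not overlap for Scara5 alone among the 10 genes, while 5.84% of all genes had groups that did not overlap. In the libraries labelled Gata4LKO limma called 0 of the 10 genes, against 0.247% of all genes. At an unadjusted p below 0.05 it had 2 of the 10, Alas1 above and Alas2 below vehicle, and 11.95% of all genes. In recovered reads edgeR called 0 of the 10 and 31 genes in all, and DESeq2 called 1 of the 10 and 200 genes in all. Both Alas1 and Alas2 had groups that did not overlap in this comparison, as did 5.25% of all genes. Averaged over genotypes, 1 of the 10 genes was called, Alas2, which was lower with GW3965; 1.78% of all genes were called (1.34% as higher and 0.441% as lower). Of the 10 genes, 1 had in the authors' deposited table an adjusted p below 0.05 with GW3965 in libraries labelled Gata4LKO, against 1.33% of all genes, and 1 in control libraries, against 1.62%. The median log2 difference of the 10 genes with GW3965 was 0.01 in libraries labelled Gata4LKO and -0.07 in control libraries, against -0.00 and -0.01 for all genes tested.

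The second question is what the Gata4LKO label changed. With GW3965, limma called 0 of the 10 genes and 0.0598% of all genes. At an unadjusted p below 0.05 there were 2 of the 10, Alas1 above and Alas2 below control, and 6.47% of all genes. With edgeR 0 of the 10 and 5 genes in all were called, and with DESeq2 1 of the 10 and 81 in all. Alas1 alone among the 10 genes had groups that did not overlap, as did 1.96% of all genes. Of the 10 genes, 1 had in the authors' deposited table an adjusted p below 0.05 for this comparison, against 0.51% of all genes. With vehicle, limma called 0 of the 10 genes and 0.0149% of all genes, with 1 of the 10, Scara5, and 6.15% of all genes at an unadjusted p below 0.05. There edgeR and DESeq2 called 0 of the 10, and 2 and 49 genes in all. No group pair of the 10 genes was without overlap there, against 6.58% of all genes. All 4 Gata4LKO vehicle libraries had Gm5345 near 0 and no control vehicle library did, so genotype and that split cannot be told apart with vehicle. Averaged over treatments limma called 0 of 10 genes (0.224% of all genes), with 1 of 10 and 7.19% of all genes at an unadjusted p below 0.05. In this comparison edgeR called 0 of the 10 and 26 genes in all, and DESeq2 1 of the 10 and 129 in all. For the difference between genotypes in the response to GW3965, limma called 0 of 10 (0.0149% of all genes), with 3 of 10 and 4.65% of all genes at an unadjusted p below 0.05. Both edgeR and DESeq2 called 0 of the 10, and 0 and 26 genes in all. With vehicle, 2 of the 10 genes and 48.5% of all genes had a log2 difference above 0 for the Gata4LKO label. The medians were -0.27 for the 10 genes and -0.01 for all genes. In the other comparisons 3 to 6 of the 10 genes were above 0. These comparisons share groups of libraries and are not independent of each other.

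**Figure D2:**
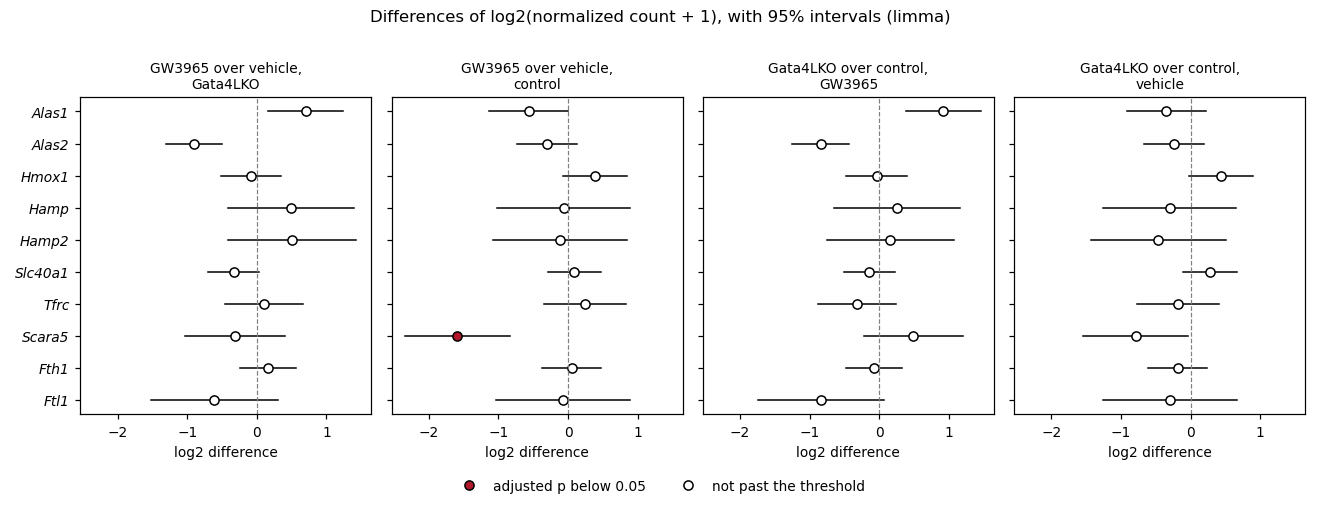
Log2 differences of the 10 genes in 4 comparisons, with the 95% interval of the limma fit as a line. The filled point, Scara5 with GW3965 in control libraries, is the 1 difference of these 40 past an adjusted p of 0.05.

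Alas1 (ENSMUSG00000032786; chromosome 9, 106233455 to 106248654, minus strand, mm10) encodes the rate-limiting enzyme of haem synthesis in liver. It had 12026, 11774, 18563, 11294 and 15270.2 normalized counts in the libraries labelled Gata4LKO with GW3965, against 3491, 10632, 8489 and 8299 in control libraries with GW3965. In vehicle libraries it had 7600.5, 9933, 6762 and 9407 in libraries labelled Gata4LKO and 14226, 8667, 10065.5 and 10146 in control libraries. With GW3965 every library labelled Gata4LKO was above every control library, while with vehicle the groups overlapped. The highest control vehicle value, of replicate 1, belonged to a mitochondria-rich library, and the lowest of all values was in control GW3965 replicate 9.

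With GW3965 Alas1 averaged 13785 ± 3097 in libraries labelled Gata4LKO (SD, n = 5) and 7728 ± 3016 in control libraries (SD, n = 4). The log2 difference was 0.92 ± 0.25, a fold of 1.89 with a 95% interval of 1.30 to 2.74, and it missed the threshold over all genes (limma adjusted p = 0.262). Without control GW3965 replicate 9 it was 0.58, the lowest over fits that left out 1 library. Between GW3965 and vehicle, Alas1 differed by 0.70 ± 0.25 in libraries labelled Gata4LKO (limma adjusted p = 0.303) and by -0.57 ± 0.27 in control libraries (limma adjusted p = 0.554). The value in control libraries was -0.22 without control GW3965 replicate 9 and -0.34 without the libraries with Gm5345 near 0. The difference between these responses was 1.27 ± 0.37, and it too missed the threshold (limma adjusted p = 0.614). In the authors' deposited table, Alas1 had a log2 fold change of 0.84 for genotype with GW3965 with an adjusted p of 0.107.

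Alas2 (ENSMUSG00000025270; chromosome X, 150547375 to 150570638, plus strand) encodes the erythroid form of the same enzyme. It had 1003, 1122, 742, 595 and 541 normalized counts in the libraries labelled Gata4LKO with GW3965, against 1072, 1342, 1677 and 1492 in control libraries with GW3965. After vehicle, it had 1415, 1425, 1448 and 1462 in libraries labelled Gata4LKO and 1479, 1896, 2099 and 1395 in control libraries. All 5 libraries labelled Gata4LKO with GW3965 were below all 8 vehicle libraries, and 4 of them were below every control GW3965 library. The lowest values, of replicates 17 and 18, were in the 2 mitochondria-rich libraries of that group.

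Averaged over genotypes, Alas2 fell by 0.60 ± 0.14 with GW3965 on the log2 scale (limma adjusted p = 0.0363). Without the 5 mitochondria-rich libraries the difference was -0.51 and no longer past the threshold (limma adjusted p = 0.0999), nor was it with a term for mitochondrial share (-0.49, limma adjusted p = 0.0747). It was also lost in 11 of the 17 fits that left out 1 library, where adjusted limma p-values ran from 0.0109 to 0.0911. The call held without control vehicle replicate 1 or 4, control GW3965 replicate 12, or Gata4LKO GW3965 replicate 14, 15 or 17. In libraries labelled Gata4LKO alone, Alas2 averaged 801 ± 253 with GW3965 (SD, n = 5) and 1438 ± 21.5 with vehicle (SD, n = 4). This difference of -0.90 ± 0.19 missed the threshold (limma adjusted p = 0.0542), and it was -0.61 without the mitochondria-rich libraries. In the authors' deposited table the same comparison had a log2 fold change of -0.84 and an adjusted p of 0.00639. In control libraries the GW3965 difference was -0.30 ± 0.20 (limma adjusted p = 0.806), or -0.098 without the libraries with Gm5345 near 0. The difference between the responses was -0.60 ± 0.28 (limma adjusted p = 0.997), or -0.21 without the mitochondria-rich libraries.

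With GW3965, Alas2 averaged 801 ± 253 in libraries labelled Gata4LKO (SD, n = 5) and 1396 ± 256 in control libraries (SD, n = 4). The log2 difference of -0.84 ± 0.19 missed the threshold (limma adjusted p = 0.141). It was -0.51 without the mitochondria-rich libraries. The authors' deposited table gives -0.80 with an adjusted p of 0.0258 for it. The Apex2 gene on the opposite strand shares 12.9% of the Alas2 exon length and had 94.2 to 287 normalized counts. No source used here says whether the counting used strand, so reads in the shared stretch cannot be told apart.

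Alas2 is known for red cell precursors, so erythroid markers were read beside it. Rhag was at 0 in 16 of 17 libraries, Epb42 in 11 and Ermap in 9, and the highest value of these in any library was 5.82 normalized counts. Of the 13 erythroid markers, 9 passed the filter on low values. The summed level of all 13 ran from 1020.1 to 2222 in libraries labelled Gata4LKO with GW3965 and from 909 to 1723 in control libraries with GW3965. With vehicle the sum ran from 1468 to 1989 in libraries labelled Gata4LKO and from 1070.2 to 2581 in control libraries. The sums overlapped between all groups, and the adult globin gene Hbb-bs ran from 382 to 1788 normalized counts over the libraries. With GW3965 averaged over genotypes, the log2 difference was below 0 for 8 of the 9 tested markers, at a median of -0.76, and no marker was called, beside -0.60 for Alas2. Over all genes, 48.9% were above 0 in that comparison. The median of these markers with GW3965 was -0.63 in libraries labelled Gata4LKO and -0.69 in control libraries, while between genotypes with GW3965 it was 0.13, beside -0.84 for Alas2. Over the 17 libraries, after removing group means, the log2 levels of Alas2 and of the marker sum correlated at r = 0.14. Alas2 over this sum ran from 0.268 to 1.77. The part of red cell RNA in the Alas2 values was not tested. Other markers of the list that are widely expressed, such as Bpgm at 170 to 268, were above 0 in every library.

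Taken as a ratio within each library, Alas1 over Alas2 was 11.98, 10.496, 25.03, 19.0 and 28.2 in libraries labelled Gata4LKO with GW3965, against 3.26, 7.92, 5.06 and 5.56 in control libraries with GW3965. With vehicle the ratio was 5.37, 6.97, 4.67 and 6.43 in libraries labelled Gata4LKO and 9.62, 4.57, 4.80 and 7.27 in control libraries. All 5 libraries labelled Gata4LKO with GW3965 were above the other 12, and the other 3 groups overlapped with each other. This ratio was formed after the values were seen and has no test.

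**Figure D3:**
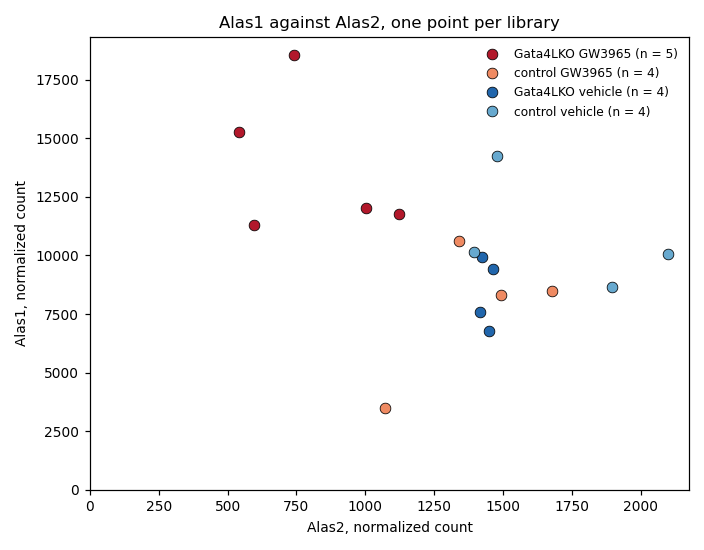
Normalized counts of Alas1 against those of Alas2, both axes linear from 0, with 1 point per library coloured by group. The 5 libraries labelled Gata4LKO with GW3965 lie at the upper left, with Alas1 over Alas2 at 10.5 to 28.2 against 3.26 to 9.62 in the other 12.

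Hmox1 (ENSMUSG00000005413; chromosome 8, 75093621 to 75100589, plus strand) encodes haem oxygenase 1, which opens the haem ring and frees its iron. It had 347, 338, 176, 189 and 340.4 normalized counts in the libraries labelled Gata4LKO with GW3965, against 291, 276, 279 and 248 in control libraries with GW3965. Under vehicle it had 304, 211, 327 and 302 in libraries labelled Gata4LKO and 225, 175, 192 and 250.4 in control libraries. The groups overlapped in every comparison. With vehicle the log2 difference of the Gata4LKO label was 0.43 ± 0.22 (limma adjusted p = 0.824), with a 95% interval of -0.02 to 0.89.

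Macrophages break down most of the haem of old red cells, so markers of Kupffer cells and macrophages were read beside Hmox1, and all 14 passed the filter on low values. Their summed level was 4651 to 6975 in libraries labelled Gata4LKO with GW3965, 4415 to 7373 in control libraries with GW3965 and 4550.05 to 5481 in libraries labelled Gata4LKO with vehicle, against 2694 to 3729 in control libraries with vehicle. With vehicle the log2 difference of the Gata4LKO label was above 0 for all 14, at a median of 0.64, and no marker was called there. In the same comparison 48.5% of all genes were above 0, and all 8 hepatocyte markers were below 0, at a median of -0.16. Genotype and the Gm5345 split cannot be told apart with vehicle. For GW3965 in control libraries the log2 difference was above 0 for 13 of the 14 macrophage markers, at a median of 0.49, and for 49.1% of all genes. There 1 marker was called as higher, against 0.605% of all genes, and 1 averaged over genotypes, against 1.34%. The control vehicle group overlapped with none of the other 3 groups. The part of these cells in the Hmox1 values was not tested.

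Hamp (ENSMUSG00000050440; chromosome 7, 30942368 to 30944032, minus strand) encodes hepcidin, and Hamp2 (ENSMUSG00000056978; chromosome 7, 30922372 to 30924681, minus strand) is its duplicate in mice, 17686 bases away on the same strand. Hamp had 2548, 4315, 4724, 12385 and 13507 normalized counts in the libraries labelled Gata4LKO with GW3965, against 3991, 5439, 4164 and 7719 in control libraries with GW3965. With vehicle it had 6085, 5538, 3500.2 and 3086 in libraries labelled Gata4LKO and 10368, 5470, 3166 and 4661 in control libraries. The groups overlapped in every comparison, and the 3 highest values, 10368 and above, were in mitochondria-rich libraries. The 95% interval for GW3965 against vehicle was -0.41 to 1.39 in libraries labelled Gata4LKO and -1.02 to 0.89 in control libraries, so the first held a log2 difference of 1 and the second one of -1. In libraries labelled Gata4LKO the log2 difference itself was 0.49, and it turned to -0.23 without the mitochondria-rich libraries.

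Hamp2 had 76.9, 117, 228, 256 and 254 normalized counts in the libraries labelled Gata4LKO with GW3965, against 308, 58.0, 122 and 232 in control libraries with GW3965. With vehicle this gene had 138, 139, 82.1 and 124 in libraries labelled Gata4LKO and 120.0, 130.3, 283 and 160.2 in control libraries. These groups overlapped in every comparison as well. Hamp over Hamp2 ran from 11.2 to 93.8 over the 17 libraries, so the ratio itself was not constant. Of 50-base stretches, 16.6% of the Hamp message also occur in other transcripts, those of Hamp2, and of 100-base stretches 0%.

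The promoters of this pair are shown because the copies sit side by side and differ widely in level. RefSeq (GRCm38.p6) held promoters for 7 of the 10 genes, and the 250 bases before the RefSeq start of Hamp and of Hamp2 were identical at 227 of 253 aligned positions, or 89.7%. The Hamp2 window lies inside the GENCODE span given for Hamp2, because that span includes a longer transcript that starts upstream of the RefSeq start. In the lines for Hamp (chr7:30944030-30944279, minus strand) and Hamp2 (chr7:30924182-30924431, minus strand), capitals mark GGCGCC, the core of the element for bone morphogenetic protein signals, and TTCNNNGAA, the element for STAT factors.
Hamp: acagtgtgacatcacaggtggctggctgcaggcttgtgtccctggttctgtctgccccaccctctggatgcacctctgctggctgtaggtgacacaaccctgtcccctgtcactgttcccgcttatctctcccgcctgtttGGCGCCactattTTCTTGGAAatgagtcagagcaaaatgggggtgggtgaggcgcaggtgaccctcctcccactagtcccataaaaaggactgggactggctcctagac
Hamp2: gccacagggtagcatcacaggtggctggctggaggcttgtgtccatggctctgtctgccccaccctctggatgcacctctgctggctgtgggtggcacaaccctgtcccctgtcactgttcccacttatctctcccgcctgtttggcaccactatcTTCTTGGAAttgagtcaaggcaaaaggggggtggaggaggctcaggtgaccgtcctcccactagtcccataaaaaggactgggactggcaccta
GGCGCC occurred once in the Hamp window and not in that of Hamp2, and in 9.59% of 32851 promoter windows of the same length. TTCNNNGAA occurred once in each of the pair and in 7.02% of all windows, and the GATA motif AGATAA, searched on both strands like the others, once in each and in 9.99%. These matches are letters in a window and not measured binding.

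Slc40a1 (ENSMUSG00000025993; chromosome 1, 45908068 to 45926523, minus strand) encodes ferroportin, the iron exporter. It had 2983, 2842, 2858, 1775 and 2364 normalized counts in the libraries labelled Gata4LKO with GW3965, against 3622, 2552, 3034 and 2137 in control libraries with GW3965. In vehicle libraries it had 3573, 3333, 2926 and 2905 in libraries labelled Gata4LKO and 1968, 2674, 3097 and 2861 in control libraries. The groups overlapped in every comparison, and values within a group split by mitochondrial share instead. The 5 mitochondria-rich libraries had 1775 to 2552 and the other 12 had 2674 to 3622, without overlap, as was so for 10.5% of all genes tested. Its whole range over 17 libraries, a fold of 2.04, was among the narrowest of the 10 genes, after Hmox1 at 1.99.

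Fth1 (ENSMUSG00000024661; chromosome 19, 9980598 to 9985098, plus strand) encodes the ferritin heavy chain, which oxidises iron for storage. It had 12776, 11081, 15494, 22937 and 14483 normalized counts in the libraries labelled Gata4LKO with GW3965, against 13028, 17648, 13784 and 19328 in control libraries with GW3965. After vehicle, it had 13035, 14685, 12590.4 and 13099 in libraries labelled Gata4LKO and 20384, 12185, 15937.5 and 13392 in control libraries. The groups overlapped in every comparison. In the 5 mitochondria-rich libraries Fth1 ran from 14483 to 22937, and in the other 12 from 11081 to 15937.5, so here the ranges overlapped.

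Ftl1 (ENSMUSG00000050708; chromosome 7, 45457944 to 45459884, minus strand) encodes the light chain, which helps form the iron core. It had 1734, 1585, 992, 277 and 1095 normalized counts in the libraries labelled Gata4LKO with GW3965, against 1819, 1842, 2102 and 1245 in control libraries with GW3965. Under vehicle it had 1684, 705, 1890 and 2098 in libraries labelled Gata4LKO and 1086, 1769.5, 2612 and 2131.5 in control libraries. The groups overlapped in every comparison, and the range over libraries, a fold of 9.41, was the widest of the 10 genes. Fth1 over Ftl1 ran from 9.58 to 82.7 in the 5 mitochondria-rich libraries. It was 15.6 in Gata4LKO GW3965 replicate 16 and 20.8 in Gata4LKO vehicle replicate 6, the 2 libraries with the fewest genes above 0 (15601 and 15515). In the other 10 libraries this ratio ran from 6.10 to 7.74. The part of library quality in these values was not tested.

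Ftl1 counts also depend on how reads shared with pseudogenes were treated. Of the 100-base stretches of the Ftl1 message, 60.6% also occur in transcripts of other genes, among them Ftl1-ps1 and Ftl2-ps, against 0.573% for Fth1 and 0% for the other 8 genes. How such reads were treated is not stated in the sources at hand, so the level of Ftl1 against Fth1 is uncertain. Ftl1-ps1 had at most 1.33 normalized counts in any library.

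**Figure D4:**
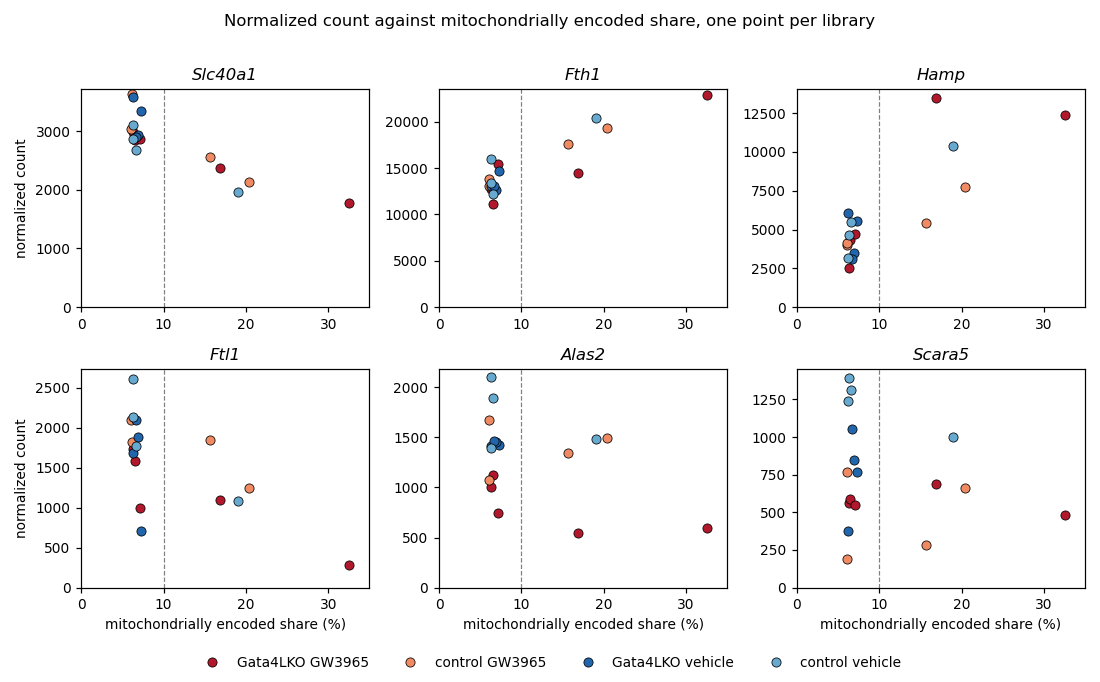
Normalized counts of 6 of the genes against the share of normalized counts held by mitochondrially encoded genes, with 1 point per library coloured by group and a dashed line at 10%. Slc40a1 was at 1775 to 2552 in the 5 libraries beyond the line and at 2674 to 3622 in the other 12, and Scara5 showed no such split.

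Tfrc (ENSMUSG00000022797; chromosome 16, 32608920 to 32632794, plus strand) encodes transferrin receptor 1, the main route of transferrin iron into cells. It had 404, 232, 475, 272 and 227 normalized counts in the libraries labelled Gata4LKO with GW3965, against 434, 650.03, 344 and 224 in control libraries with GW3965. With vehicle it had 372, 283, 247 and 258 in libraries labelled Gata4LKO and 317, 340, 377 and 273 in control libraries. The groups overlapped in every comparison. The 95% intervals of the GW3965 differences were -0.45 to 0.66 in libraries labelled Gata4LKO and -0.34 to 0.83 in control libraries, so neither held a log2 difference of 1 or of -1.

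Scara5 (ENSMUSG00000022032; chromosome 14, 65666403 to 65764826, plus strand) encodes a scavenger receptor that takes up ferritin, as described in mice. It had 188, 285, 768 and 663 normalized counts in control libraries with GW3965 and 1003, 1313, 1238 and 1389 in control libraries with vehicle. Every control GW3965 library was below every control vehicle library, and the 2 lowest, replicates 9 and 10, were those with Gm5345 near 0. Scara5 averaged 476 ± 283 with GW3965 and 1236 ± 167 with vehicle (SD, n = 4 each), and it fell by 1.59 ± 0.36 on the log2 scale (limma adjusted p = 0.0448). Without the libraries with Gm5345 near 0 the log2 difference was -0.78 and no longer past the threshold (limma adjusted p = 0.299), and this fit was added after the data were seen. The summed level of 14 stellate cell and fibroblast markers, for reference to other cells of the liver, was 4672 to 5984 in control libraries with GW3965 and 4726 to 5413 in control libraries with vehicle. In libraries labelled Gata4LKO this sum was 6017 to 8651 with GW3965 and 4531 to 6122 with vehicle. The part of these cells in the Scara5 values was not tested.

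The Scara5 call was close to the threshold in other ways. It was lost without control GW3965 replicate 9 or 10 or any 1 of the 4 control vehicle libraries, 6 of the 8 fits that left out 1 library, and over the 8 the log2 difference ran from -1.90 to -1.22 and the adjusted limma p from 0.0266 to 0.191. Leaving out control GW3965 replicate 9 gave -1.22 (limma adjusted p = 0.115), and leaving out replicate 10 gave -1.42 (limma adjusted p = 0.191). It was also lost without the mitochondria-rich libraries, at -1.79 (limma adjusted p = 0.143). With no filter on low values (limma adjusted p = 0.0620), in the compared groups alone (limma adjusted p = 0.168) and in edgeR on recovered reads (adjusted p = 0.0880) it was lost as well, while DESeq2 kept it (adjusted p = 0.00640). The authors' deposited table gives a log2 fold change of -1.38 with an adjusted p of 0.00600.

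In the libraries labelled Gata4LKO, Scara5 had 559, 592, 549, 484 and 688 normalized counts with GW3965, against 373, 765, 847 and 1052 with vehicle. These groups overlapped through 1 vehicle library, replicate 5, and the log2 difference was -0.32 ± 0.34 (limma adjusted p = 0.682). The difference between the genotypes in the GW3965 response was 1.28 ± 0.49 and missed the threshold (limma adjusted p = 0.945), so a response in one genotype alone was not shown. With vehicle, Scara5 differed by -0.79 ± 0.36 between libraries labelled Gata4LKO and control libraries (limma adjusted p = 0.794), and by -0.48 without Gata4LKO vehicle replicate 5. Averaged over genotypes the GW3965 difference was -0.95 ± 0.25 (limma adjusted p = 0.0566). With GW3965 itself, the values of libraries labelled Gata4LKO lay within the range of the control values.

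**Figure D5:**
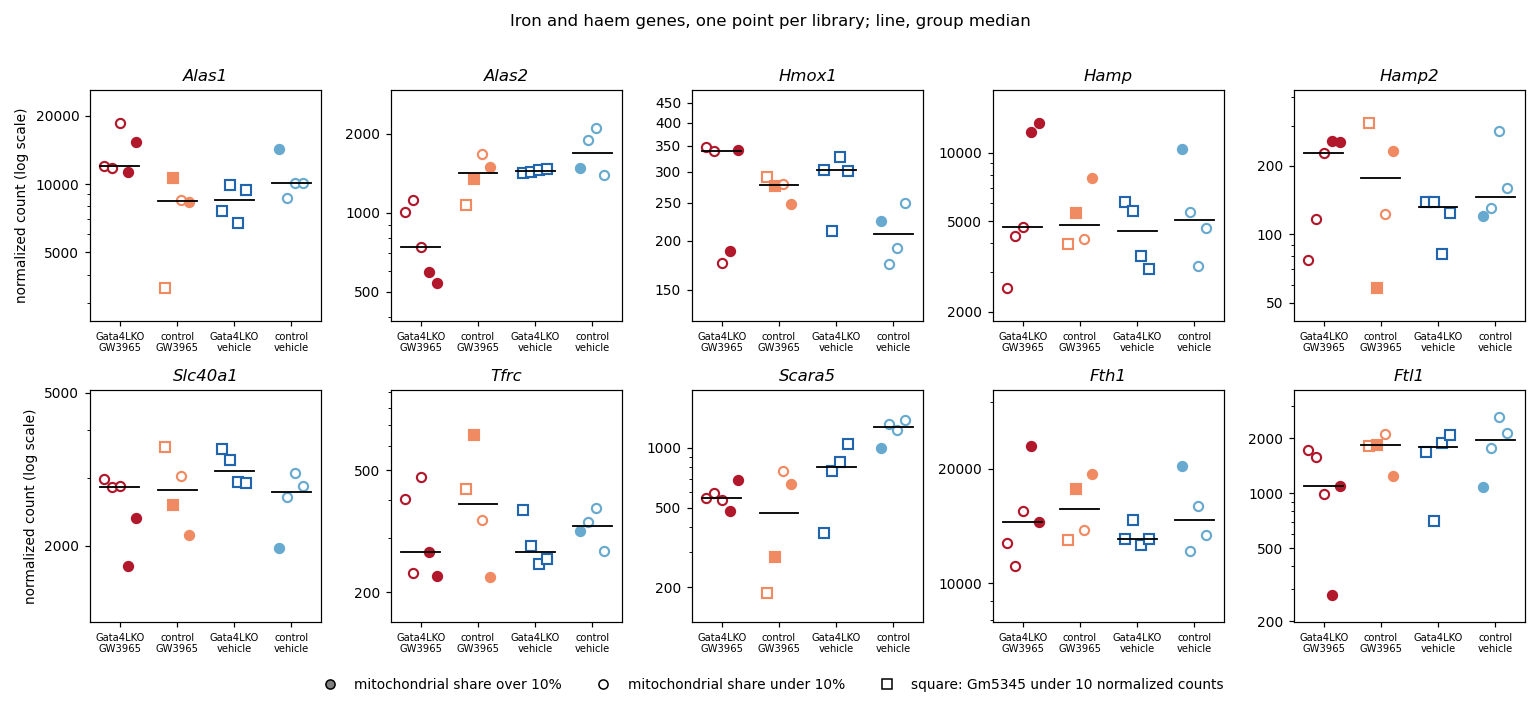
Normalized counts of the 10 genes on log axes, with 1 point per library, groups along the horizontal axis and the group median as a line. Filled points are libraries with a mitochondrial share over 10% and squares those with Gm5345 under 10 normalized counts; Scara5 ran from 188 to 768 in control GW3965 libraries and from 1003 to 1389 in control vehicle libraries.

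Around these genes, 10 lists of iron and haem pathway genes held 115 tested genes, of which 7 were called in at least 1 of the 7 comparisons, Alas2 and Scara5 among them. Over all genes tested, 2.15% were called in at least 1 comparison, and since the lists were drawn up with earlier results known, the share of 6.09% in them is a description. In the list of iron uptake, transport and export, with 18 tested genes, 1 rose and 2 fell with GW3965 in control libraries. Of all genes tested, 0.605% were called as higher and 0.187% as lower there. Lcn2, whose product lipocalin 2 binds iron-carrying siderophores, averaged 56.2 ± 28.3 with GW3965 and 234 ± 127 with vehicle (SD, n = 4 each), and it fell by 2.01 ± 0.33 on the log2 scale (limma adjusted p = 0.00793). With GW3965, Lcn2 was at 161 to 243 in libraries labelled Gata4LKO and at 38.0 to 98.3 in control libraries, a log2 difference of 1.91 ± 0.31 (limma adjusted p = 0.0301). Slc25a37, which encodes mitoferrin 1, the carrier that brings iron into mitochondria, averaged 1288 ± 332 with GW3965 and 790 ± 33.5 with vehicle in control libraries, a log2 difference of 0.67 ± 0.14 (limma adjusted p = 0.0309). Averaged over genotypes, Slc25a37 rose by 0.46 ± 0.10 (limma adjusted p = 0.0165) and Slc39a14, an importer of iron that is not bound to transferrin, fell by 0.64 ± 0.16 (limma adjusted p = 0.0490) in the same list. In libraries labelled Gata4LKO no gene of the list passed the threshold with GW3965. The calls of pathway genes outside the 10, here and below, were not followed through the alternatives. With 1 library left out, the genes called for GW3965 in control libraries ran from 22 to 109, against 106 in the main fit. For the Gata4LKO label with GW3965 they ran from 2 to 21, against 8. Leaving out the libraries with Gm5345 near 0 lowered both counts, as given at the end.

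In the 6 tested genes of the interleukin 6 arm of hepcidin control, 1 fell with GW3965 in control libraries, the receptor gene Il6ra. Of all genes tested, 0.187% were called as lower there. Il6ra averaged 2216 ± 641 with GW3965 and 4240 ± 467 with vehicle (SD, n = 4 each). It fell by 0.98 ± 0.17 on the log2 scale (limma adjusted p = 0.0136). In that comparison the log2 difference was below 0 for all 6 genes of this list, Hamp included, at a median of -0.23. For all genes the median was -0.01, and 49.1% of them were above 0. In libraries labelled Gata4LKO 3 of the 6 were negative with GW3965, with a median of 0.01. In the 22 tested genes of the bone morphogenetic protein and hemojuvelin arm, none passed the threshold in any comparison. The median log2 difference of that arm with GW3965 was 0.02 in libraries labelled Gata4LKO and -0.06 in control libraries.

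Of 16 tested genes for haem synthesis enzymes and their mitochondrial carriers, Alas2 was the 1 gene called, with GW3965 averaged over genotypes. The share of all genes called as lower there was 0.441%. The 16 genes had a median log2 difference with GW3965 of -0.13 in libraries labelled Gata4LKO and -0.12 in control libraries, against -0.00 and -0.01 for all genes. In the list of 11 tested genes drawn up around the control of Alas1 in liver, Insig1 was called as higher with GW3965 averaged over genotypes, by 0.63 ± 0.12 (limma adjusted p = 0.00987). The share of all genes called as higher there was 1.34%. Whether Insig1 acts on Alas1 was not tested. Insig1, which holds sterol sensing proteins in the endoplasmic reticulum, averaged 2423 ± 391 with GW3965 and 1701 ± 147 with vehicle in libraries labelled Gata4LKO, and 3955 ± 757 with GW3965 and 2351 ± 545 with vehicle in control libraries. No gene was called in the lists of haem binding and breakdown (13 tested), of ferritin storage (5), of iron-sulfur cluster assembly (12) and of the NRF2 and BACH1 axis (12), where NRF2 and BACH1 are regulators of Hmox1 and the ferritin genes. In the list of iron regulatory proteins and messages with an iron-responsive element (12), Alas2 was again the only call.

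By correlation over the 17 libraries after removing group means, the gene most like Alas1 was Gpat4 (r = 0.91). Por, the reductase that feeds electrons to cytochrome P450 enzymes (r = 0.89), and Actn4 (r = 0.88) followed closely. For Slc40a1 the gene most alike was Abca3 (r = 0.95), for Fth1 Zwint (r = 0.96) and for Scara5 Enpp2 (r = 0.82). These values are the highest over all other tested genes, are given as a description, and for Slc40a1 and Fth1 include the split by mitochondrial share.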

How the data were processed

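Liver RNA, taken up in TRIzol and cleaned on columns, went into KAPA mRNA Hyperprep libraries, per the labels' protocols. The submitters' processing notes name STAR 2.6.0c, mm10, FastQC and DESeq2. No source used here names the read counter, gene models or strand setting. The authors deposited 1 table of normalized counts, a signal of reads per gene divided by a size factor per library, as the values show, and 5 tables of comparisons. Those hold log2 fold changes (in 1 table also a linear fold ratio), a test statistic, which is a score, and p-values raw and adjusted, per the file headers. Whole reads could be recovered for 100% of values within 0.05 read.

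The test was limma-trend (limma 3.58.1, R 4.3.3) on log2(normalized count + 1), in 1 fit of all 17 libraries that gave each group a coefficient. Fold changes of low genes are understated on this scale. edgeR 4.0.16 and DESeq2 1.42.0 were run on the recovered reads as alternatives. On simulated data with 200 changed genes among 13379, limma recovered 46% of genes changed 2-fold and 81% of those changed 4-fold for GW3965 in control, and 52% and 84% for GW3965 in Gata4LKO. For the Gata4LKO label it recovered 44% and 85% with GW3965 and 51% and 80% with vehicle, with 4 to 7 false calls per comparison.

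The labels do not say that each library is a separate mouse, so p-values measure the spread between these libraries. Replicate pairs differed by far more than sampling noise, and no library was counted as a duplicate. The series text gives a younger age than the sample labels. The 10 genes and the pathway and marker lists were chosen with earlier results of these data known. All 10 genes are described. Other pathway genes are named if called in any comparison, and the genes most like a member are those with the highest correlation. Hjv, Erfe, Trf and Fdx2 were matched through older symbols. Sequences were read with Python 3.11.15 from GENCODE M21 transcripts and RefSeq promoters (GRCm38.p6). Promoters of Scara5, Slc40a1 and Hmox1 are not shown. Alternatives were 2 other pseudocounts, no filter on low values, TMM scaling, edgeR, DESeq2, the compared groups alone, leaving out each library, and leaving out the mitochondria-rich libraries. A term for that share and leaving out the libraries with Gm5345 near 0 were added after the data were seen.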

Additional observations from a re-analysis of the deposited data

How the results depend on the processing

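No paired analysis was possible because the replicate numbers in the titles are unique to each library and shared by no groups. The 13 log2 differences followed were of Alas1, Alas2 and Scara5 alone, and none of them turned round under any alternative. Other differences of the 10 genes did turn. Scara5 for the Gata4LKO label with GW3965 ran from -0.32 to 0.79. Hamp for that label averaged over treatments changed sign in 10 of 25 alternatives, and Fth1 with GW3965 in control libraries in 6 of 18. Of the 10 genes, limma called 1 with GW3965 in control libraries, and 0 with no filter on low values, with edgeR, in the compared groups alone, without the mitochondria-rich libraries or without those with Gm5345 near 0. With GW3965 averaged over genotypes it called 1, against 2 with DESeq2 and 0 without the mitochondria-rich libraries or with a term for that share. DESeq2 called 1 where limma called 0 for GW3965 in libraries labelled Gata4LKO, for the Gata4LKO label with GW3965 and for that label averaged over treatments, and the term for mitochondrial share gave 1 for the last 2 as well. Leaving out 1 library gave 0 to 1 of the 10 genes with GW3965 in either genotype, 0 to 2 averaged over genotypes and 0 in the other comparisons.

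Counts over all genes moved more. For GW3965 in control, limma called 106 genes, against 57 with no filter, 226 with DESeq2, 19 in the compared groups alone, 63 without the mitochondria-rich libraries, 5 without those with Gm5345 near 0, and 22 to 109 when 1 library was left out. For GW3965 in libraries labelled Gata4LKO the count was 33, against 200 with DESeq2 and 6 to 78 with 1 library left out, and averaged over genotypes 238, against 527 and 142 to 334. For the Gata4LKO label with GW3965 it was 8, against 5 with edgeR, 81 with DESeq2, 1 in the compared groups alone, 51 with the term for mitochondrial share, 3 without the libraries with Gm5345 near 0, and 2 to 21. With vehicle it was 2, against 49 with DESeq2, 21 in the compared groups alone, 14 without the mitochondria-rich libraries, and 0 to 3. Averaged over treatments it was 30, against 129 with DESeq2, 104 with that term and 9 to 57. For the difference in response it was 2, against 0 with edgeR, 26 with DESeq2, 1 without the mitochondria-rich libraries, 4 with the term, and 0 to 9. The cause of these moves was not tested. Scaling by TMM shifted the median of all genes by 0.01 or less.

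Depth limits Hamp2, Hmox1, Tfrc and Ftl1 most, with 58, 98, 141 and 144 reads in the library with the fewest. Counting error covers only part of the spread, which between libraries was far larger.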
